A study of Homo sapiens with 3 samples.

Results

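The transcripts of the constitutive proteasome and of VCP were examined on 3 single-channel arrays of HEK293T cells, a line from human embryonic kidney with the SV40 large T antigen. Members were chosen by name from the array's annotation: every probe set with 1 gene symbol beginning PSMA to PSMG followed by a digit, or VCP, without the immunoproteasome genes PSMB8, PSMB9 and PSMB10. A probe set is a group of short probes for 1 transcript region, and 64 of the 22277 sets on the array were members, for 39 genes. Of these, 61 sets for 37 genes code for proteasome subunits, regulators, assembly factors or VCP. The name rule also took PSMC3IP and PSME3IP1, with 3 sets, whose proteins bind a subunit but are no subunits themselves.

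All 3 cultures received dCas9VP160, a cleavage-dead Cas9 fused to the VP160 activator, and only the guide RNA was varied. One array held cells with sgTetOmut, a mutant guide without a target, 1 held cells with sgTetO, aimed at the TetO promoter of bacterial origin, and 1 held cells with sgIL1RN1~3, aimed at the promoter of IL1RN. The labels give no time after transfection. Each guide was measured once, so the values carry no replicate error and guides could not be compared by a test.

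The proteasome is the main protease of the cytosol and nucleus and degrades proteins marked with ubiquitin. Its core particle is a stack of alpha rings, which form the gate, and beta rings, which hold the protease sites. A regulatory particle sits on the core: its base unfolds the substrate with a ring of ATPases, and its lid removes the ubiquitin chain. Alternative activators of the PSME family open the core without ATP, and VCP, a separate ATPase, pulls marked proteins out of membranes and complexes and passes them to the proteasome. Rapidly growing cell lines express these genes strongly.

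Values are deposited log2 intensities. The members were read well: 59 of the 64 sets lay at or above the median of the 19070 sets with 1 gene symbol on all 3 arrays, a median that was 5.49 with sgTetOmut, 5.46 with sgTetO and 5.50 with sgIL1RN1~3. Another 4 sets, PSMD4 210459_at, PSME4 212220_at and both PSMD5 sets, lay below the median on all 3 arrays. The last, PSMB1 214289_at, reached it on sgTetOmut alone. One reading, PSMD5 215546_at at 3.40 with sgIL1RN1~3, was no higher than the highest of the 27 Bacillus control sets. Set means over the 3 arrays ran from 3.67 to 12.2, and since sets differ in how brightly they bind, these levels do not order the genes.

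The arrays as a whole were alike, and the sorted values of the 3 columns lay within 0.104 of their common mean. The authors' scaling therefore leaves differences relative to the bulk of sets. Of the HEK293T markers, 9 of 12 sets lay at or above the median on each array, with VIM at 9.87 to 10.39 and NEFL in one set at 10.06 to 10.42. KRT8 and LHX1 lay below it on all 3 arrays. All 8 sets of blood markers, 5 of endothelium and 6 of liver lay below it, and of 7 fibroblast sets 1, for LUM, lay above. The sgIL1RN1~3 array stood apart in the chip controls along the beta-actin and GAPDH transcripts. Its 5' set of ACTB was 0.95 above sgTetO and 0.82 above sgTetOmut, its middle set 0.69 and 0.64, and its 3' set 0.06 and 0.07. For GAPDH the middle set was 0.58 and 0.54 higher and the 3' set differed by -0.01 and 0.03. The part of this gradient in the member differences given for that array was not tested, because probe positions within the transcripts were not used here.

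Promoter sequences are shown for the 4 genes on which the differences turn: VCP and PSMD8, the members furthest above both other arrays with sgIL1RN1~3, PSMD2, next in that order, and PSME1, the member furthest above both others with sgTetOmut. Each run is the 250 bases before the listed start, from RefSeq on GRCh38.p14, at chr9:35072626-35072875 on the minus strand for VCP, chr19:38374321-38374570 for PSMD8, chr3:184298991-184299240 for PSMD2, by the first of its 2 listed starts, and chr14:24135944-24136193 for PSME1, all 3 on the plus strand. Capitals mark matches on either strand to TGACNNNGC, the core of the antioxidant response element that proteasome genes are known for, to CCAAT, the box bound by NF-Y, to GAAA, 2 bases of any kind and GAAA, the core of the interferon-stimulated response element, or to TTCNNNGAA, the gamma-activated site bound by STAT factors.
VCP: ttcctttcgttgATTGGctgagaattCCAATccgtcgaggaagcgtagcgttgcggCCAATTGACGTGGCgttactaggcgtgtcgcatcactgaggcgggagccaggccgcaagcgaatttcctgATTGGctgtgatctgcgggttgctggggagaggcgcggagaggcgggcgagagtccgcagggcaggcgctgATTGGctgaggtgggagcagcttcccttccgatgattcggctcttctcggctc
PSMD8: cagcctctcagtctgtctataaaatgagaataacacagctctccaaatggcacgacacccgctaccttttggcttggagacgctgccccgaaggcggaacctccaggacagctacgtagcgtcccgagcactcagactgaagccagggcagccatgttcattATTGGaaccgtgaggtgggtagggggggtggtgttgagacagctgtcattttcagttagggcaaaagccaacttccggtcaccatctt
PSMD2: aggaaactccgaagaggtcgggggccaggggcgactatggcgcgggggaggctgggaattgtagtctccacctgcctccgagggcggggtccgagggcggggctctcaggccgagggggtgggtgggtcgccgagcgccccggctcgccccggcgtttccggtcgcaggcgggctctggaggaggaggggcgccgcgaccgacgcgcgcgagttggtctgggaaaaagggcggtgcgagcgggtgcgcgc
PSME1: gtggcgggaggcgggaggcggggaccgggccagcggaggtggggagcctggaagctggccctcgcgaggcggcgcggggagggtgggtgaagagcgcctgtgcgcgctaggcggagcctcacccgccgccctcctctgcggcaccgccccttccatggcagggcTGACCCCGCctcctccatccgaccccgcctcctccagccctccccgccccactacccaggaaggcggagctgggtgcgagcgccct

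The VCP window held the antioxidant response element core once, starting 189 bases before the start, and CCAAT at 5 places, one of which adjoins that core without overlap. The PSMD8 window held CCAAT 88 bases before the start, on the opposite strand. The PSME1 window held the antioxidant core 86 bases before the start, and the PSMD2 window held none of the 4 motifs. Over all genes of the role groups, 32 of 37 had an entry, with 38 windows, and PSMA7, PSMB1, PSMB6, PSMB7 and PSMD4 had none. The antioxidant core stood in 28.9% of the member windows against 10.9% of all 35116 windows of that length, and CCAAT in 42.1% against 32.0%. The interferon core stood in 5.26% against 3.02%, and the gamma-activated site in 13.2% against 6.57%. A match is a run of letters and no shown binding site.

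Most member differences were small. A set was counted when it lay at least 1.5-fold, 0.58 on the log2 scale, above or below both other arrays and was at or above the median where it was high. With sgIL1RN1~3, 2 of the 59 member sets that could be counted were above both others, VCP 208649_s_at and PSMD8 200820_at, beside 1.27% of all named sets, and 0 of 59 were below both, beside 0.853%. With sgTetOmut the counts were 0 of 60 above and 0 of 59 below, beside 0.650% and 0.0108%. With sgTetO they were also 0 and 0, beside 0.0734% and 0.0861%. A count of 2 is too small to read against such shares.

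At a looser limit of 0.32 log2 units, 8 of 59 member sets were above both others with sgIL1RN1~3, beside 7.61% of all named sets. These were VCP 208649_s_at, the sets of PSMD8 and PSMD2, both sets of PSMD1, PSMD4 210460_s_at, PSMA7 216088_s_at and PSME3 200988_s_at. PSMG2 was the 1 of 59 below both there, beside 5.51%. PSME1 was the 1 of 60 above both with sgTetOmut, beside 1.41%, and 0 of 59 lay below, beside 0.280%. With sgTetO, PSMB4 202243_s_at and PSME3 200988_s_at were the 2 of 59 below both, beside 2.09%, and 0 of 59 lay above, beside 0.891%.

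The pairs of arrays share their members' readings, so these counts are not independent. Between the control guides, 0 of 60 member sets were 1.5-fold higher or lower with sgTetO, beside 0.134% and 0.939% of all named sets. From sgTetO to sgIL1RN1~3, 4 of 59 were 1.5-fold higher, beside 3.10%, and 0 of 59 lower, beside 1.94%. The 4 were VCP 208649_s_at, PSMD8, PSMA7 216088_s_at and PSME3 200988_s_at. From sgTetOmut to sgIL1RN1~3, VCP 208649_s_at and PSMD8 were the 2 of 60 higher, beside 1.60%, and PSMB1 214289_at was the 1 of 60 lower, beside 1.85%. The median size of a member difference was 0.11 between the controls, 0.16 from sgTetO to sgIL1RN1~3 and 0.16 from sgTetOmut to sgIL1RN1~3. For all named sets at or above the median the same sizes were 0.087, 0.15 and 0.13.

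**Figure D1:**
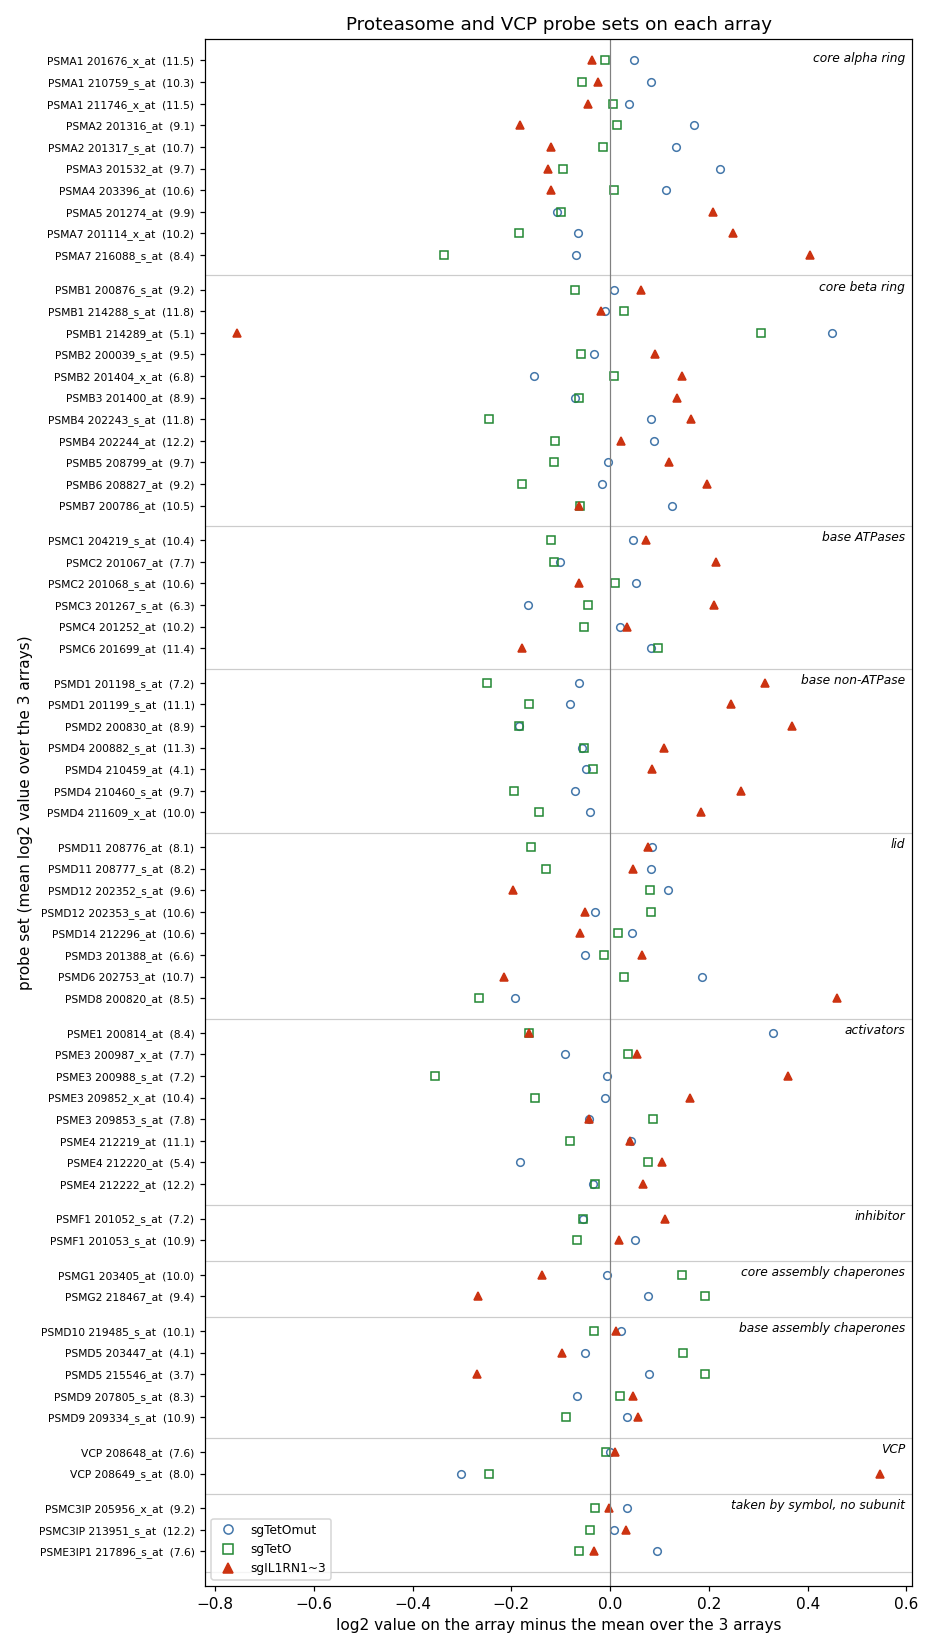
Each row is 1 member probe set, with its mean log2 value over the 3 arrays in brackets, and the points give the log2 value on each array (open circle sgTetOmut, open square sgTetO, filled triangle sgIL1RN1~3) minus that mean, 1 array per guide. VCP 208649_s_at and PSMD8 stand to the right with sgIL1RN1~3, PSME1 stands to the right with sgTetOmut, and PSMB1 214289_at stands far to the left with sgIL1RN1~3.

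VCP was represented by 2 sets, which disagreed. The set 208649_s_at read 7.67 with sgTetOmut, 7.72 with sgTetO and 8.51 with sgIL1RN1~3. Its value with the IL1RN guides was thus 1.80-fold that with sgTetOmut and 1.73-fold that with sgTetO, while the controls differed by 0.06. The set 208648_at read 7.55, 7.54 and 7.56, and its 3 values lay within 0.02 of each other. The sets differed by 0.77 log2 units in sgIL1RN1~3 minus sgTetO, so the height of VCP with the IL1RN guides rests on 1 of its 2 sets. VCP works with adaptor proteins, and the list of its cofactors held 36 sets for 20 measured genes of 26. Only 27 or 28 of these met the level condition for an array and direction. Of those, 0 lay 1.5-fold above both other arrays on any array. The share of all named sets was 0.650% with sgTetOmut, 0.0734% with sgTetO and 1.27% with sgIL1RN1~3. With sgIL1RN1~3, 1 of 27 was below both, beside 0.853%. It was UBXN4 212008_at, at 5.59 against 6.49 with sgTetO and 6.34 with sgTetOmut. UBXN4 anchors VCP at the endoplasmic reticulum, and its other sets read 10.69 and 7.01 with sgIL1RN1~3, 10.67 and 7.56 with sgTetO, and 10.79 and 7.40 with sgTetOmut. The cofactors that recruit ubiquitin-marked substrates, UFD1 and NPLOC4, were 0.02 lower and 0.03 higher with sgIL1RN1~3 than with sgTetOmut. Against sgTetO they were 0.18 and 0.28 higher. Of the cofactor sets, UBE4B 215533_s_at came nearest to the limit above both others. It read 6.23 with sgIL1RN1~3 beside 5.66 with sgTetO and 5.54 with sgTetOmut. The other UBE4B sets were also highest with sgIL1RN1~3, by smaller margins. Over the 36 sets, the median differences of sgIL1RN1~3 were 0.03 from sgTetO and -0.02 from sgTetOmut.

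In the base, the non-ATPase subunits were higher with sgIL1RN1~3 in each of their sets. This group holds PSMD1 and PSMD2, the large scaffold subunits, and PSMD4, a receptor for ubiquitin chains. Its 7 sets were all higher than on both controls, with a median difference of 0.41 from sgTetO and 0.32 from sgTetOmut. Over all named sets at or above the median the same medians were 0.03 and 0.00. Of the 6 sets that met the level condition, 6 were highest with sgIL1RN1~3, beside 42.7% of all named sets. The other, PSMD4 210459_at, lay below the median on all 3 arrays. Under quantile and cyclic loess scaling 7 of 7 sets remained higher, where the share of all named sets was not computed. PSMD2 read 8.76 with each of the control guides, to the same deposited value, and 9.31 with sgIL1RN1~3, a 1.47-fold difference that lay just under the limit. PSMD1 201198_s_at read 7.14 with sgTetOmut, 6.95 with sgTetO and 7.51 with sgIL1RN1~3, and PSMD1 201199_s_at was 0.41 above sgTetO and 0.32 above sgTetOmut, at 11.32. Both PSMD1 sets were therefore highest with the IL1RN guides, by 0.38 and 0.32 over the nearer control. The PSMD4 sets exceeded the nearer control by 0.12 to 0.34. Several of these sets measure the same transcript, so 7 sets are 3 genes.

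The ATPases of the base did not share that shift as a group. Their 6 sets, for 5 genes, had medians of 0.14 against sgTetO and 0.02 against sgTetOmut. PSMC3 was highest with sgIL1RN1~3, at 6.55 against 6.29 with sgTetO and 6.17 with sgTetOmut. PSMC6 was lowest there, at 11.26 against 11.53 with sgTetO and 11.52 with sgTetOmut. The 2 sets of PSMC2 went opposite ways, one 0.32 higher and the other 0.11 lower than with sgTetOmut. PSMC1 and PSMC4 with sgIL1RN1~3 differed from sgTetOmut by 0.03 and 0.01, and were 0.19 and 0.09 above sgTetO.

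The lid held members at both ends, with PSMD8 high and PSMD6 and PSMD12 low with sgIL1RN1~3. PSMD8, a lid subunit needed for lid assembly onto the base, read 8.33 with sgTetOmut, 8.26 with sgTetO and 8.98 with sgIL1RN1~3, which is 1.57-fold and 1.65-fold higher with the IL1RN guides. It has 1 set, so no second reading of the same transcript was at hand. PSMD6, another lid subunit, lay lowest against sgTetOmut, at 10.91, 10.75 and 10.51, lower by 0.40 than with sgTetOmut and by 0.24 than with sgTetO. PSMD14, the enzyme that cuts off the ubiquitin chain, was nearly level at 10.63, 10.60 and 10.52. PSMD11 read 8.16, 7.92 and 8.15 in one set and 8.26, 8.05 and 8.23 in the other, so that sgTetO was lowest in both. PSMD12 202352_s_at read 9.68 with sgTetOmut, 9.64 with sgTetO and 9.37 with sgIL1RN1~3, the lid set lowest against sgTetO. PSMD12 202353_s_at read 10.53, 10.64 and 10.51. The medians of the 8 lid sets were 0.00 against sgTetO and -0.03 against sgTetOmut.

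**Figure D2:**
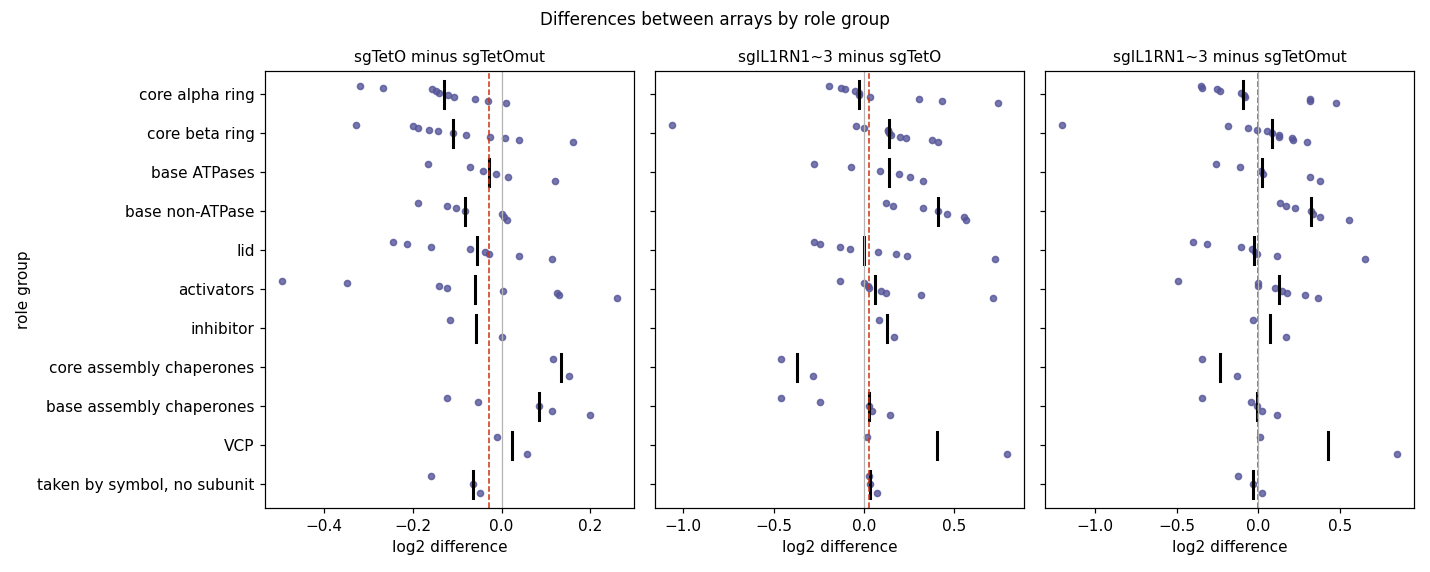
Points are member probe sets, placed by the log2 difference between 2 arrays (panels, with separate horizontal scales) in rows by role group; black bars are group medians and the dashed line is the median of all named sets at or above the median level. The base non-ATPase row lies right of the dashed line in both panels with sgIL1RN1~3, at medians of 0.41 and 0.32, while the lid spans both sides.

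In the core particle, alpha subunits were not alike, and 7 of their 10 sets were highest with sgTetOmut, beside 31.5% of all named sets. PSMA1, PSMA2, PSMA3 and PSMA4, of the ring that forms the gate, account for these 7 sets, a grouping made after the values were seen. PSMA3 read 9.90 with sgTetOmut against 9.58 with sgTetO and 9.55 with sgIL1RN1~3. PSMA2 201316_at read 9.25, 9.09 and 8.90. Sets that the annotation shares with another gene were no members. Those of PSMA2 and C7orf25 read 6.54 with sgTetOmut, 6.61 with sgTetO and 6.45 with sgIL1RN1~3, and 7.440, 7.445 and 6.953. Neither was highest with sgTetOmut, whereas both sets of PSMA6 and PRORP were, at 10.50 and 10.54. PSMA5 and PSMA7, of the same ring, were highest with sgIL1RN1~3. PSMA5 read 9.81, 9.82 and 10.12, in the same array order. The PSMA7 sets read 10.16, 10.04 and 10.48, and 8.38, 8.11 and 8.85, so both placed sgTetO lowest. The second PSMA7 set was 1.67-fold higher with sgIL1RN1~3 than with sgTetO, but 1.39-fold higher than with sgTetOmut. Under cyclic loess scaling, 1 of the 7 sets of PSMA1 to PSMA4 was higher with sgTetO than with sgTetOmut, so the order of the controls is not the same in every scaling.

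The 3 beta subunits that carry the protease sites of the constitutive core were measured by 1 set each. PSMB5, the chymotrypsin-like subunit, read 9.67 with sgTetOmut, 9.56 with sgTetO and 9.80 with sgIL1RN1~3. PSMB6, the caspase-like subunit, read 9.20, 9.04 and 9.41. PSMB7, the trypsin-like subunit, read 10.64, 10.46 and 10.45. None of these differences reached 0.4 log2 units, and PSMB5 and PSMB6 were highest with sgIL1RN1~3 while PSMB7 was highest with sgTetOmut. PSMB2, a structural beta subunit, read 6.70 with sgTetOmut, 6.86 with sgTetO and 6.996 with sgIL1RN1~3 in 201404_x_at, and 9.44, 9.41 and 9.56 in its brighter set. PSMB4, also structural, had its lowest value with sgTetO in both sets, 11.54 against 11.87 with sgTetOmut and 11.95 with sgIL1RN1~3 in 202243_s_at, and 12.14 against 12.34 and 12.27 in 202244_at. Of the 21 core sets, 4 were higher with sgTetO than with sgTetOmut, beside 38.0% of all named sets, with a median difference of -0.12, against -0.03 over all named sets at or above the median. The count was 5 under quantile scaling and 6 under cyclic loess.

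PSMB1, a structural beta subunit, had the largest difference among all member sets and the strongest disagreement between sets. Set 214289_at read 5.52 with sgTetOmut, 5.38 with sgTetO and 4.32 with sgIL1RN1~3, a 2.30-fold and 2.09-fold lower value. It was not counted as below both others, since its value with sgTetO, 5.38, lay under the median of 5.46. The other 2 sets, at 9.18, 9.10 and 9.24 and at 11.80, 11.83 and 11.79, were within 0.14 of each other across arrays. The low value with the IL1RN guides was thus seen in the dim set and not in the bright ones.

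Among the activators, PSME1 stood out with sgTetOmut. PSME1 is the alpha subunit of an activator that interferon induces together with the immunoproteasome. It read 8.75 with sgTetOmut and 8.25 with both sgTetO and sgIL1RN1~3, a 1.41-fold difference and the furthest of any member above both other arrays on sgTetOmut. The immunoproteasome genes, which are no members, gave the context on the same array. PSMB9 read 6.64 with sgTetOmut, 4.17 with sgTetO and 4.45 with sgIL1RN1~3, whereas PSMB10 read 5.01, 4.91 and 4.88. PSMB8 lay under the highest Bacillus set on all 3 arrays. IRF1, the interferon-induced factor that acts on these genes, read 5.40, 4.83 and 5.05, under the median throughout. PSME2, the partner of PSME1, shares its set with a microRNA gene in the annotation, so the set was left out of the members. That set read 8.14 with sgTetOmut, 8.11 with sgTetO and 8.21 with sgIL1RN1~3, and so was not highest with sgTetOmut. The part of interferon-related signal in the PSME1 difference was not tested.

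The other activators did not follow PSME1. PSME3, a nuclear activator that works without ubiquitin, had 4 sets that disagreed by 0.84 log2 units in sgIL1RN1~3 minus sgTetO. Set 200988_s_at read 7.24 with sgTetOmut, 6.89 with sgTetO and 7.61 with sgIL1RN1~3, while 209853_s_at read 7.74, 7.87 and 7.74. The remaining PSME3 sets read 10.35, 10.21 and 10.52, and 7.66, 7.79 and 7.80. PSME4, an activator linked to histone degradation, read 12.17, 12.17 and 12.27 and 11.18, 11.06 and 11.18 in its bright sets, and 5.19, 5.45 and 5.48 in the set below the median. PSMF1, an inhibitor of the core in the test tube, read 7.17, 7.17 and 7.34, and 10.95, 10.84 and 10.92. No set of PSME4 or PSMF1 differed by over 0.29 between any 2 arrays.

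**Figure D3:**
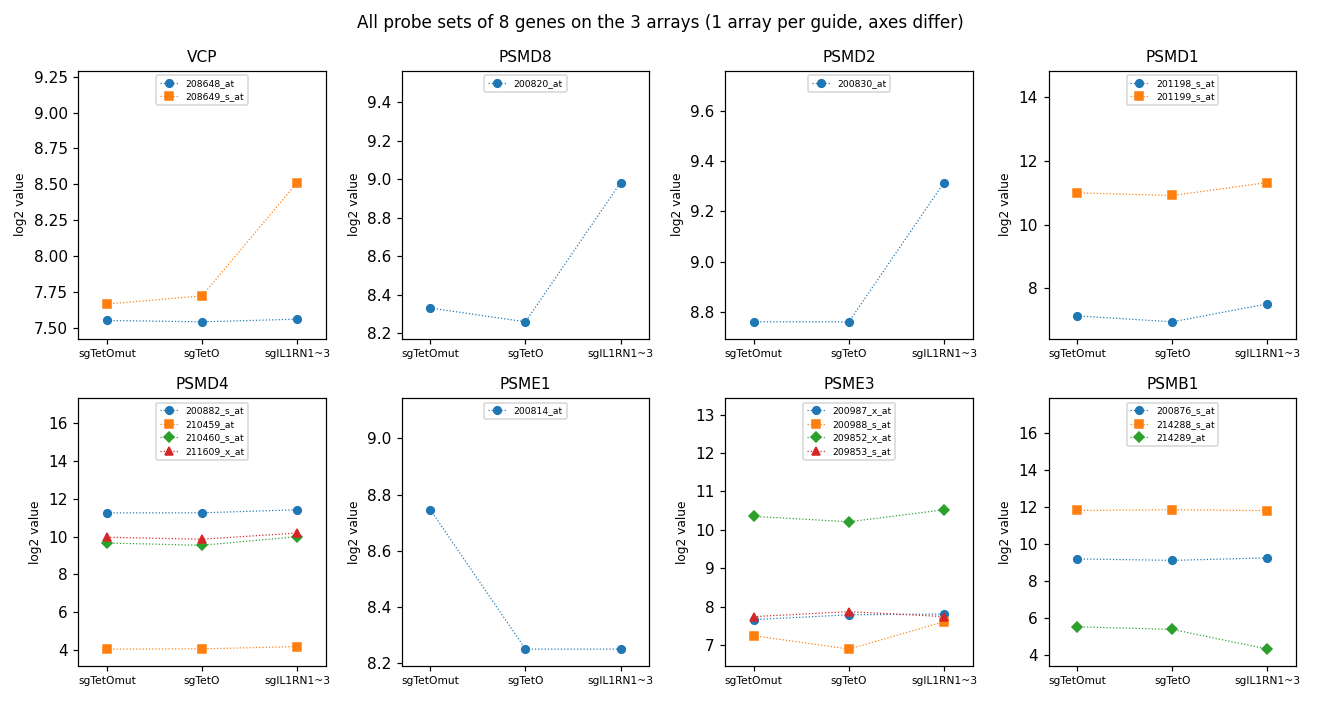
Log2 values of every probe set of 8 genes on the 3 arrays, 1 array per guide, with a vertical scale of its own in each panel and dotted lines joining the readings of 1 set. VCP, PSME3 and PSMB1 each have a set that departs from the others of its gene, while the 2 PSMD1 sets and the 4 PSMD4 sets are all highest with sgIL1RN1~3.

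The 2 measured assembly chaperones of the core read lowest with sgIL1RN1~3. PSMG1 and PSMG2 form a pair that guides alpha ring formation. PSMG2 read 9.45 with sgTetOmut, 9.57 with sgTetO and 9.11 with sgIL1RN1~3, and PSMG1 read 10.03, 10.18 and 9.89. Both were lowest with the IL1RN guides, beside 37.1% of all named sets, and highest with sgTetO, beside 25.1%. A count of 2 of 2 sets is too small to read against such shares. Of the base chaperones, PSMD9 and PSMD10 differed by at most 0.15 between any 2 arrays, and PSMD9 207805_s_at read 8.23 with sgTetOmut, 8.31 with sgTetO and 8.34 with sgIL1RN1~3. PSMD5, also a base chaperone, was dim: its sets read 4.05, 4.25 and 4.01, and 3.74, 3.86 and 3.40, both highest with sgTetO. The 3 sets of PSMC3IP and PSME3IP1 differed by at most 0.16.

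Counted by array and without regard to size, the member shares differed from those of all named sets in both directions, and these differences were not tested. With sgIL1RN1~3, 32 of 59 sets were the highest of the 3, beside 42.7% of all named sets, and 16 of 59 were the lowest, beside 37.1%. With sgTetO, 6 of 59 were the highest, beside 25.1%, and 29 of 59 the lowest, beside 40.8%. With sgTetOmut, 22 of 60 were the highest, beside 31.5%, and 10 of 59 the lowest, beside 20.0%. The member shares were 54.2% and 27.1%, 10.2% and 49.2%, and 36.7% and 16.9% in the same order. By pairs, sgTetO was higher than sgTetOmut in 16 of 60 member sets and lower in 42 of 60, beside 38.0% and 57.9% of all named sets. sgIL1RN1~3 was higher than sgTetO in 41 of 59 and lower in 17 of 59, beside 54.7% and 42.9%. It was higher than sgTetOmut in 32 of 60 and lower in 27 of 60, beside 48.2% and 49.7%. The member counts moved with the scaling. Over all 64 member sets, 20 were higher with sgTetO than with sgTetOmut as deposited, 29 under quantile scaling and 28 under cyclic loess. Likewise 43 of 64 were higher with sgIL1RN1~3 than with sgTetO as deposited and 37 under each of the other scalings. The bulk of sets moved too. For sgTetO minus sgTetOmut, the median of named sets at or above the median level went from -0.03 to 0.01 under both scalings. The member median went from -0.06 to -0.02. For sgIL1RN1~3 minus sgTetO, these medians went from 0.03 to -0.01 and from 0.09 to 0.06. Shares of all named sets were not computed under these scalings.

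**Figure D4:**
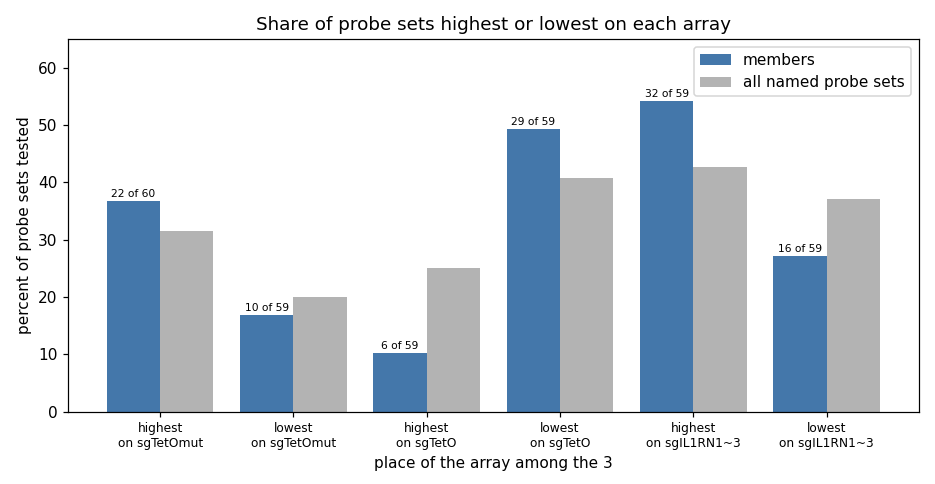
Bars give the percent of probe sets at or above the level condition that were highest or lowest of the 3 arrays on the array named, for the members (blue, with counts) and for all named sets (grey); exact ties count as neither. The blue bar exceeds the grey one for highest on sgIL1RN1~3, at 54.2% against 42.7%, and falls short of it for highest on sgTetO, at 10.2% against 25.1%.

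Genes around the proteasome were taken from fixed lists. Of the 18 sets of 12 measured proteasome partners, 17 met the level condition, and 0 of these lay 1.5-fold past both other arrays. The shares of all named sets ran from 0.0108%, below both with sgTetOmut, to 1.27%, above both with sgIL1RN1~3. UCHL5, a deubiquitinase of the base, was lowest with sgIL1RN1~3 in both sets, at 7.51 against 7.97 with sgTetO and 8.04 with sgTetOmut, and at 6.98 against 7.31 and 7.43. ADRM1, the base receptor that holds UCHL5, read 8.25 with sgIL1RN1~3 beside 8.03 and 8.01. POMP, the chaperone of core maturation, read 11.45 with sgTetOmut, 11.33 with sgTetO and 11.29 with sgIL1RN1~3. Of the 9 sets of 6 measured ubiquitin and shuttle genes, 7 met the level condition and 0 of these passed either. UBA1, the main enzyme that activates ubiquitin, came nearest, at 12.04 with sgIL1RN1~3 beside 11.35 with sgTetO and 11.51 with sgTetOmut. Of the 21 sets of 8 measured regulators of proteasome genes, only 13 or 14 met the level condition, by array and direction, and 0 of these passed. NFE2L1, the factor that raises proteasome genes when the protease is short, read between 7.93 and 8.83 in its 3 sets, and its widest difference was 0.27 on the log2 scale, between sgTetOmut at 8.83 and sgTetO at 8.56.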

How the data were processed

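Total RNA of 3 HEK293T cultures was hybridised to Affymetrix arrays with 22277 probe sets, 1 per guide. The authors deposited log2 intensities made with affy, which the submitters' processing notes name without a version; background correction, normalization and summary are not stated there. The log2 scale was taken from the values, 1.36 to 14.5. Sets were named from GEO's platform annotation: 19070 had 1 symbol, 1043 several and 2164 none listed. The number of arrays limits the precision.

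Differences of the deposited values were computed with Python 3.11.15, numpy 2.4.6 and pandas 2.3.3. The limit was 1.5-fold past both other arrays. A set above both others had to be at or above the median of named sets on its array. For a set below both others, the lower of the 2 other values had to be at or above that of its array. In pairs of arrays, it was enough that either value was at or above its array's median. Quantile and cyclic loess scaling used limma 3.58.1 in R 4.3.3. Other alternatives were the gene as unit, limits of 0.32 log2 units and 2-fold, no minimum level, sets ending in _at alone, 16 added to linear values, a single reference array and leaving out dim members, the last 2 added after the data were seen.

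Full values are given for VCP, activators, the inhibitor, PSMB5 to PSMB7, the 5 sets furthest above and below on each array, and genes whose sets differ by over 0.5. Other genes named were chosen after their values were seen. Members and lists were chosen with earlier results of these data known. PSMA6, PSMA8, PSMB11, PSMC5, PSMD7, PSMD13, PSME2, PSMG3 and PSMG4 had no set with a single symbol and were not members. Of these, only the sets that PSMA6 and PSME2 share with another gene are reported.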

Additional observations from a re-analysis of the deposited data

How the results depend on the processing

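With 1 array per guide, nothing here has a replicate check. No paired analysis was possible because each guide has 1 array. Over 27 results, 172 of 189 values under alternatives stayed within 0.1 log2 units or 1.5 times the main count, 17 moved further and 0 reversed. A reversal was counted only where both values were at least 0.1 in size, so smaller ones could change sign uncounted. A median under 0.1 in size could likewise fall to 0 and still count as unmoved. Counts of 0 could not change at the 2-fold limit. The tally is therefore no measure of how firm the results are. Under quantile scaling, the base median of sgTetO minus sgTetOmut went from -0.04 to 0.01. VCP 208648_at went from 0.02 to -0.05 in sgIL1RN1~3 minus sgTetO. The 2 sets above both others with sgIL1RN1~3 became 8 at the looser limit of 0.32, 0 at 2-fold, 4 without the sgTetOmut array, and 1 with the mean of a gene's sets or with _at sets alone. The 0 below both there became 1 at the looser limit, with _at sets alone, with no minimum level and without the sgTetO array. With sgTetOmut, 0 above became 1 at the looser limit and 1 without sgTetO, and 0 below became 2 without sgTetO. With sgTetO, 0 below became 2 at the looser limit and 4 without sgTetOmut. The base median, 0.26 against sgTetO, was 0.12 with _at sets alone, and 0.22 against sgTetOmut was 0.10 by each gene's highest set. The core median against sgTetOmut, -0.01, was -0.13 with _at sets alone. The cause of these shifts was not tested. Both scalings left the VCP and PSMD8 calls in place.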
